A study of Mus musculus with 12 samples.

Results

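The genes described here are 9 contactin and contactin-associated protein genes, Cntn3, Cntn4, Cntn5, Cntn6, Cntnap2, Cntnap4, Cntnap5a, Cntnap5b and Cntnap5c, in ChIP-seq of histone H3 dimethylated at lysine 9 (H3K9me2) from mouse prefrontal cortex. The deposited tables list regions called in the ChIP libraries, and a region was given to a member when it overlapped that gene, or when it overlapped no gene and the table named the member as the gene with the nearest start. This gave 238 of 33787 regions (0.704%) in the table of FAD against WT mice and 324 of 43680 regions (0.742%) in the table of FAD-BIX against FAD mice. The members were 9 of 5303 genes with a region in either table, and each had a region in both tables, so that no member was without one.

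All mice were C57BL/6 and 5 to 6 months old. WT were wild-type mice, FAD were mice with familial Alzheimer's disease mutations, and FAD-BIX were FAD mice treated with BIX01294, a compound that blocks the H3K9 methyltransferases EHMT1 and EHMT2. Each group had 2 mice, and each mouse gave 1 ChIP and 1 input library, the sheared chromatin before immunoprecipitation. The transgenes, the promoters that drive them, the dose and duration of BIX01294 and the sex of the mice are not given in the sources used here, and tissue punches mix neurons with other cells, so that a difference in the mark per cell and a difference in cell makeup cannot be told apart.

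H3K9me2 is laid down mainly by EHMT1 and EHMT2 and marks repressed chromatin, often over wide stretches of introns and of the space between genes. Contactins are immunoglobulin-superfamily adhesion proteins held on the neuronal surface by a lipid anchor, and contactin-associated proteins are transmembrane relatives of the neurexins that pair with contactins along axons and at synapses. Among the contactins here, Cntn3 is also known as BIG-1, Cntn4 is an axon guidance molecule that binds the amyloid precursor protein, Cntn5 acts in synapse formation in the auditory pathway, and Cntn6 is a Notch ligand. Cntnap2 encodes CASPR2, which holds voltage-gated potassium channels beside the nodes of myelinated axons, and Cntnap4 acts at synapses of inhibitory interneurons. Cntnap5a, Cntnap5b and Cntnap5c are separate mouse relatives of a single human gene, CNTNAP5.

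Before the results, the library labelled FAD 1 needs a caution. It was kept as a FAD library in every fit of FAD mice except those that left it out. Statements below on both FAD mice, and FAD means, therefore include it. Its input held 0.63 RPM (reads scaled to the total of the library) at the regions of Thy1 in the first table, against 24.05 in the input of FAD 2 and 0.08 and 0.69 in the inputs of WT 1 and WT 2. In the second table the Thy1 values of the inputs were 403.2 and 203 RPM in FAD-BIX, 365.6 in FAD 2 and 3.97 in FAD 1. Thy1 carries the promoter used for the transgenes of several FAD lines, and by this measure the library labelled FAD 1 was like WT and unlike FAD 2. Over the heart-muscle marker genes with a region (7 of 14 in the first table) ChIP gave 82.4 RPM in FAD 1, 27.5 in FAD 2 and 14.5 and 11.8 in WT, and in the second table (8 of 14) 89.4, 30.9 and, in FAD-BIX, 20.5 and 19.9. The inputs did not show this order, with 8.43 RPM in FAD 1, 11.1 in FAD 2 and 9.64 and 9.0 in WT 1 and WT 2 in the first table. Markers of cortical neurons ranged from 5.01 to 13.7 RPM in ChIP, and no microglial marker had a region. All of these are reads of a chromatin mark at marker genes and give no share of cell types. The part of these libraries in the results was not tested other than by leaving each out.

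Most of the regions lay inside the genes. Of the 238 regions, 229 overlapped a member in the first table, and each of these was annotated to an intron. Of the 324 regions of the second table, as many as 310 overlapped one, with 305 in introns, 4 in exons (Cntnap2 exon 12, Cntnap5a exon 3, Cntnap5b exon 19 and Cntnap5c exon 6) and 1 in the 3′ untranslated region of Cntnap5a. The other 9 and 14 regions lay between genes next to Cntn5 (1 and 2), Cntn6 (5 and 9) and Cntnap5b (3 and 3). Regions were given to members by overlap first, which favours a high share inside the genes. The share in introns was not counted over all regions. RefSeq promoter entries of GRCm38.p6 covered 6 members with 9 windows, and no member region touched any of them. Regions covered at most 2.14% of a member, so their absence from 9 short windows says little. No such share was counted over all genes. The nearest region to a member's start was 1454 bp away in the first table and 16407 bp away in the second. First introns held 38 and 59 regions, and Cntnap2 alone held 11 and 25 in its first intron.

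Most regions were short and were called in a single mouse. The median width was 339 bp in the first table (329 bp over all regions) and 332.5 bp in the second (325 bp over all). Of the member regions, 92.4% and 92.9% were called in 1 ChIP library alone, against 94.9% and 93.4% of all regions. In each table no member region was called in all 4 ChIP libraries, and 1 and 3 were called in 3. The library FAD 2 alone accounted for 117 of 238 and 112 of 324 member regions (49.2% and 34.6%), a smaller share than of all regions (60.3% and 44.9%).

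**Figure D1:**
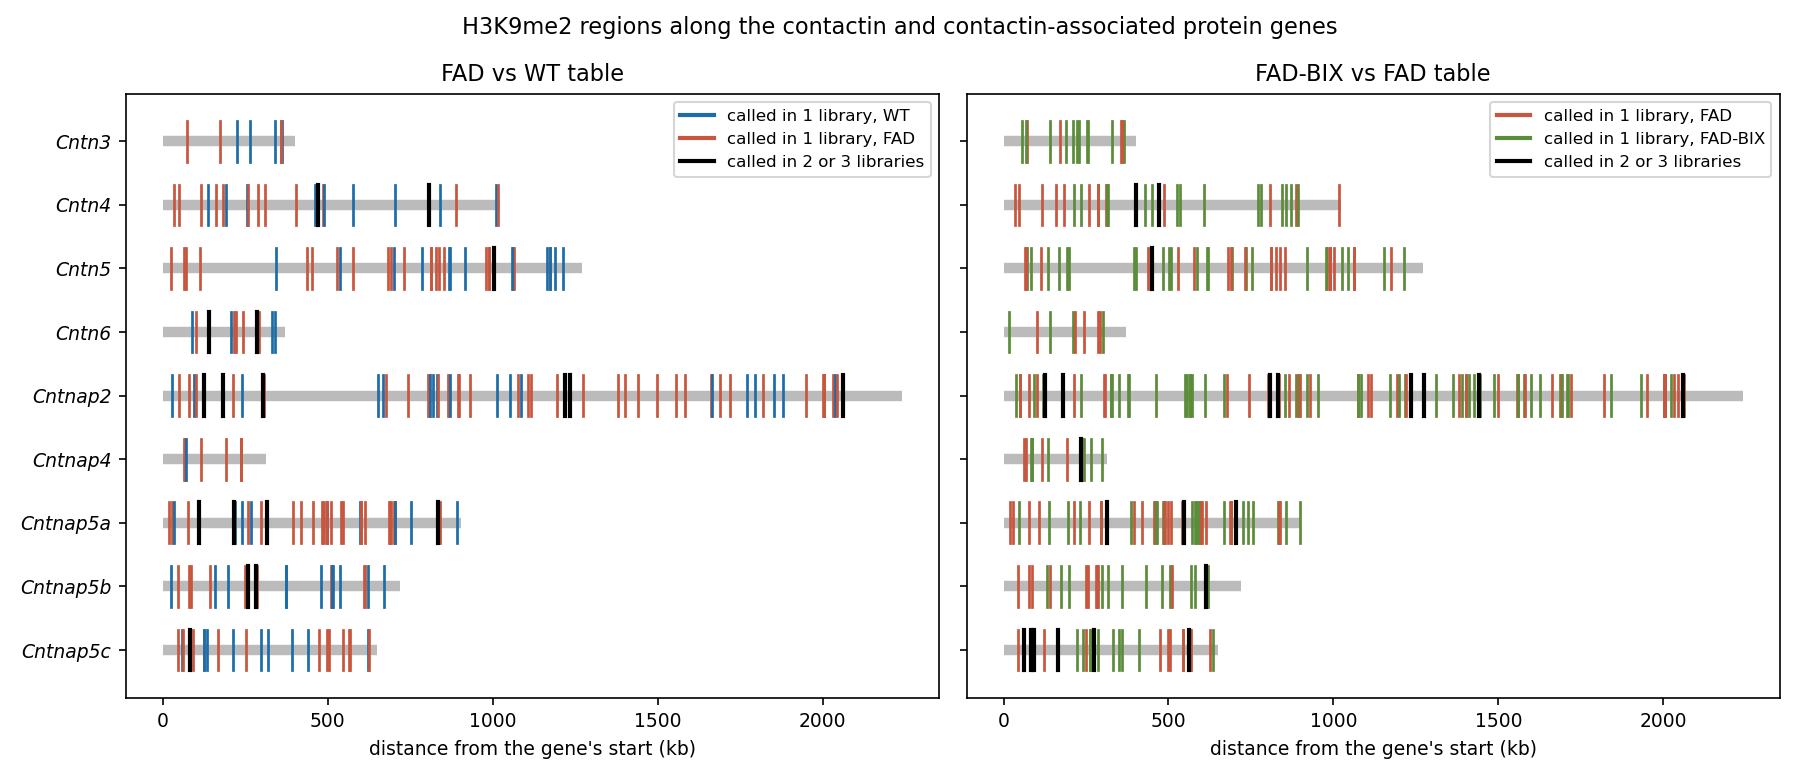
Called H3K9me2 regions that overlap the 9 genes, drawn by their centre as distance from the gene's start in kb, for each comparison table. Grey bars are the genes, coloured ticks are regions called in 1 library of that group, and black ticks are regions called in 2 or 3 libraries. Regions are spread along the longer genes, with gaps between neighbouring regions of up to 343.3 kb in Cntnap2 in the first table. The groups' ticks are interspersed.

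The share of each library's calls that fell in the 9 genes differed less than the number of calls. In the first table, WT 1 had 60 of 5867 calls in the members (1.02%), WT 2 had 33 of 4133 (0.798%), FAD 1 had 30 of 3904 (0.768%) and FAD 2 had 134 of 21849 (0.613%). The library with most calls thus gave the lowest share to these genes. In the second table the shares were 95 of 9753 for FAD-BIX 1 (0.974%), 92 of 11347 for FAD-BIX 2 (0.811%), 30 of 3904 for FAD 1 (0.768%) and 133 of 21930 for FAD 2 (0.606%).

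Density was counted as regions per Mb of gene length. For groups of genes a region counted when its centre lay in the gene. On this count the 9 members together had 29.0 regions per Mb in the first table and 39.55 in the second, and protein-coding genes of at least 500 kb (n = 227) together had 18.0 and 24.6, with medians of 16.1 and 23.7. All 9 members lay above that median in both tables. The members were chosen with earlier results of these data known, so this is a description and no test. The 4 other genes listed for these families together had 5.92 regions per Mb in each table. The 4 contactins together had 25.1 and 32.6 regions per Mb, below the 5 contactin-associated protein genes with 31.5 and 43.95. For single members below, a region counted when the tables placed it in the gene, which gave 29.0 and 39.3 regions per Mb over the 9 together.

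Among the contactins, Cntn3 (401.3 kb, chromosome 6) had 19.9 regions per Mb in the first table and 37.4 in the second, and Cntn4 (1023 kb, chromosome 6) had 22.5 and 29.3. Cntn5 (1271 kb, chromosome 9) had 27.6 and 35.4. Cntn6 (370.7 kb, chromosome 6) had 29.7 and 24.3, the only member with fewer overlapping regions in the second table, 9 against 11. Among the contactin-associated protein genes, Cntnap2 (2241 kb, chromosome 6) had 27.7 and 42.8, or 62 and 96 regions, and Cntnap4 (312.9 kb, chromosome 8) had 22.4 and 41.6 from 7 and 13 regions. Cntnap5a (902.6 kb, chromosome 1) had the highest density of the 9 in both tables, 39.9 and 55.4 regions per Mb. By region centre it ranked 6 and 4 among the 227 long genes. Cntnap5b (718.4 kb, chromosome 1) had 33.4 and 34.8, and Cntnap5c (648.9 kb, chromosome 17) had 35.5 and 41.6.

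**Figure D2:**
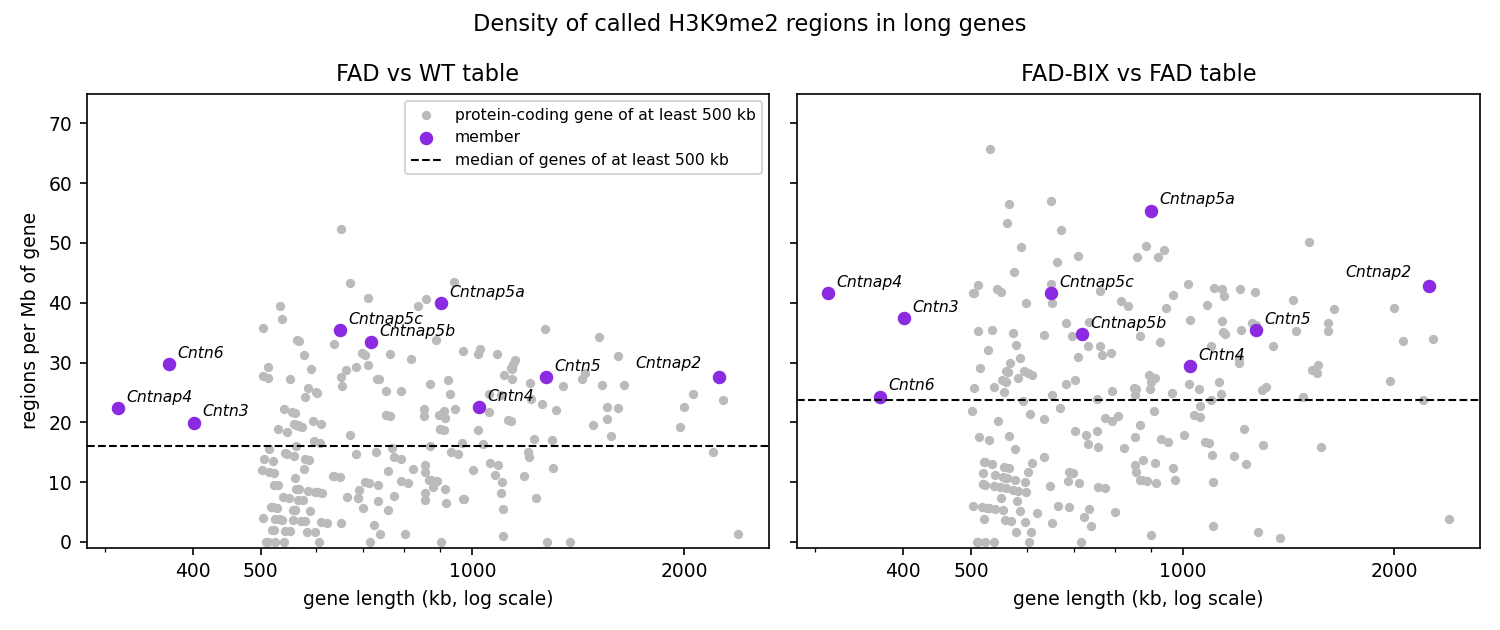
Regions per Mb of gene against gene length in kb on a log scale, for the 9 members (purple, regions as the tables place them) and protein-coding genes of at least 500 kb (grey, regions by centre), with the median of the latter as a dashed line. All members lie above the line in both tables, including Cntn3, Cntn6 and Cntnap4, which are shorter than 500 kb and are not part of the grey set.

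The densities depend on which calls are counted. With regions called in at least 2 libraries the 9 genes together had 2.28 and 2.79 regions per Mb, and without those called in FAD 2 alone 14.96 and 25.9. Neighbouring regions were a median of 12.8 kb apart in Cntnap5a in both tables and 40.7 and 15.5 kb apart in Cntn3. Even in Cntnap5a the regions covered 1.49% and 2.14% of the gene, and in Cntn3 0.681% and 1.22%.

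Signal over input was seen at the members in every mouse. Each region had been called in at least 1 of these ChIP libraries, so a ratio above 0 is favoured by the choice of regions and is no test. The log2 ratio of ChIP to input RPM, over reads summed across the 238 member regions and with 1 read added, was 1.54 in WT 1, 1.34 in WT 2, 1.48 in FAD 1 and 2.54 in FAD 2. Over the summed reads of all regions of that table it was lower in each mouse, at 1.09, 1.00, 1.34 and 2.25. For the median region this did not hold in FAD 2, with 2.20 at the members and 2.24 over all regions in the first table and 1.86 and 2.04 in the second. FAD 2 was high, and FAD 1 lay between the WT mice, so the groups overlapped. In the second table the ratio was 1.60 in FAD-BIX 1, 1.93 in FAD-BIX 2, 1.49 in FAD 1 and 2.30 in FAD 2, with both FAD-BIX mice between the FAD mice, and it was 1.24, 1.69, 1.32 and 2.099 over all regions. A missing call did not mean a missing signal. Over member regions not called in a library, the median log2 ratio in that library was 0.85 to 1.12, against 0.71 to 1.12 over all such regions.

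By gene, the log2 ratio was above 0 for all 9 members in all mice of both tables. The lowest value was 0.70 in WT 2 at Cntn3 and the highest 2.90 in FAD 2 at Cntn6. In the first table FAD 2 was the highest of the 4 mice at each member. Of the member regions there, 117 had been called in FAD 2 alone, and the calls and the ratios come from the same reads. In WT the spread of the 2 mice was small at Cntnap4 (1.15 ± 0.0027 SD, n = 2), Cntnap5b (1.83 ± 0.03 SD, n = 2) and Cntn5 (1.45 ± 0.07 SD, n = 2) and wide at Cntn6 (1.37 ± 0.73 SD, n = 2) and Cntn3 (1.12 ± 0.60 SD, n = 2). In the second table FAD was 1.72 ± 0.90 at Cntn3 and 2.24 ± 0.35 at Cntnap5c (SD, n = 2), and FAD-BIX was 1.42 ± 0.41 and 1.76 ± 0.07 (SD, n = 2).

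**Figure D3:**
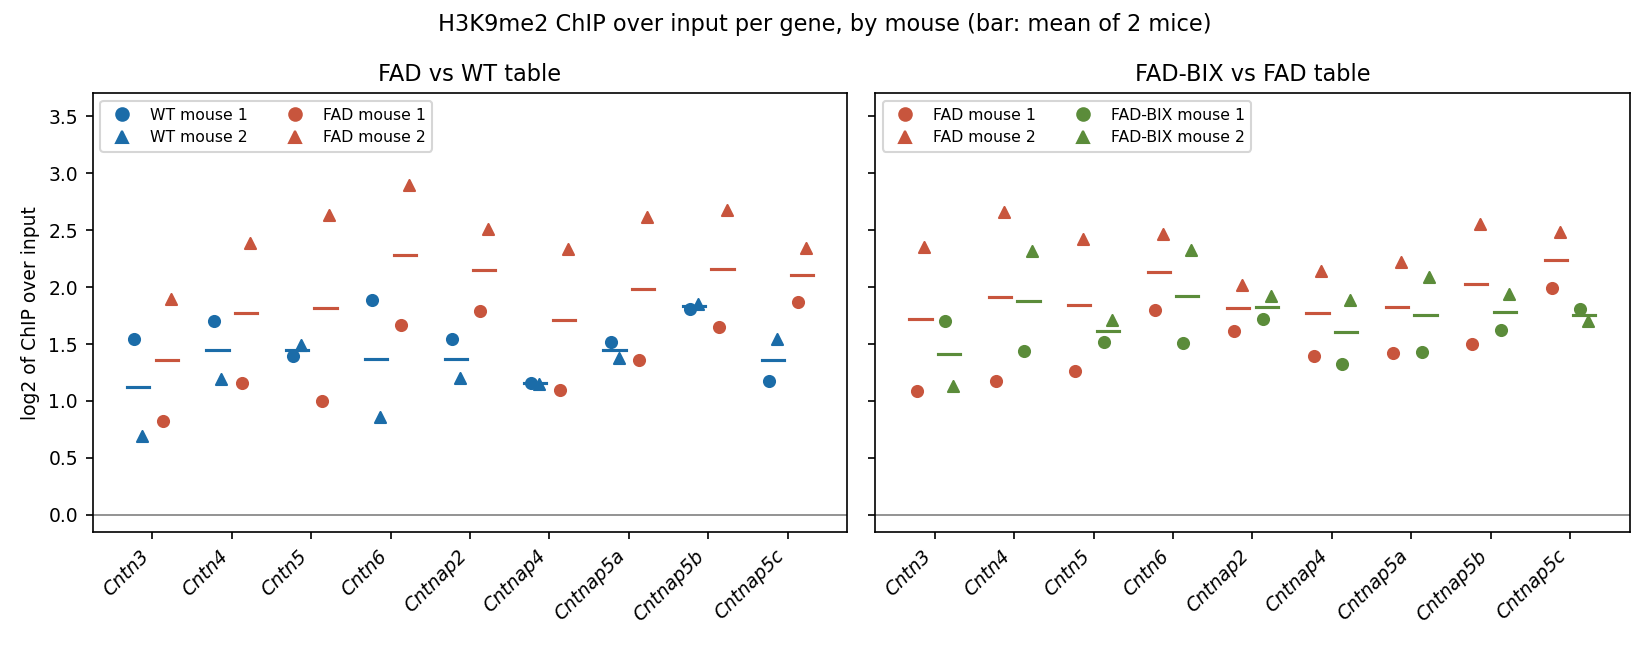
Log2 of ChIP over input RPM of the reads summed over each gene's regions, by mouse, with a bar for the mean of 2 mice, in each comparison table. All points lie above 0, and FAD mouse 2 (red triangles) is the highest of the 4 mice at all 9 genes in the first table. The regions were chosen by calls in these same ChIP libraries.

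Per kb of called region, the members had 1.496 and 1.48 ChIP RPM in WT 1 and WT 2, 1.42 in FAD 1 and 2.40 in FAD 2, where all regions had 1.58, 1.70, 1.70 and 2.92. On this summed scale the members lay below all regions in each of these libraries. The median region did not follow in WT, where it was higher at the members (1.35 against 1.23 RPM per kb in WT 1 and 1.38 against 1.31 in WT 2). In FAD 1 the medians were 1.303 and 1.313 and in FAD 2 2.67 and 2.81. Between genes, FAD 2 ranged from 2.03 ChIP RPM per kb of region at Cntnap5b to 2.96 at Cntnap4, and WT 2 from 1.08 at Cntnap4 to 1.70 at Cntnap5c.

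The first comparison asks how H3K9me2 differed between FAD and WT mice. No member differed past the threshold, an adjusted p under 0.05 in edgeR's quasi-likelihood test of ChIP reads summed per gene with TMM scaling, which takes most genes as unchanged. Counts were 0 of 9 members and 0 of 3793 genes tested (0%), and DESeq2 also called 0 members. At an unadjusted p under 0.05, 0 members were higher in FAD, where 1.29% of all genes were, and 0 were lower, where 3.14% were. The fitted log2 fold was below 0 at 8 members and above 0 at Cntnap4, with a median of -0.18 against 0.01 over all genes. This split depends on the scaling. With library totals, the fold was above 0 at all 9, with a median of 0.39, and the median of all genes moved to 0.61. At these regions the members were thus on the low side of all genes under both scalings. That depended on the regions counted. With only regions called in at least 2 ChIP libraries, and TMM scaling, the median was -0.041 for the 7 members tested and -0.045 for all genes.

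Values below are CPM, the reads of a gene scaled to the TMM-adjusted sum of its library over all genes. They serve to compare mice at 1 gene and not genes with each other. Cntn3 had 643.2 and 403.8 CPM in WT 1 and WT 2 and 435 and 492.3 in FAD 1 and FAD 2, a log2 fold of -0.17 ± 0.29 (SE). The FAD mice lay between the WT mice. Cntn4 had 1739 and 1282 in WT and 1425 and 1238 in FAD, again with overlap, and a log2 fold of -0.18 ± 0.25 (SE).

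Cntn5 had 2429 and 2634 CPM in WT and 1903 and 2114 in FAD, so both FAD mice were below both WT mice, and its log2 fold was -0.33 ± 0.22 (SE, adjusted p = 0.931). Cntn6 was also lower in both FAD mice, with 1076 and 1021 against 1425 and 1132 in WT, and a log2 fold of -0.29 ± 0.24 (SE, adjusted p = 0.931). All 4 contactins thus had a fold below 0 with TMM scaling and above 0 with library totals, from 0.30 to 0.46.

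Of the contactin-associated protein genes, Cntnap2 had 4533 and 4423 CPM in WT and 4675 and 3594 in FAD, with overlap and a log2 fold of -0.12 ± 0.23 (SE). Cntnap4 had 432.2 and 347.4 in WT and 473.3 and 480.2 in FAD, the one member that was higher in both FAD mice. Its log2 fold was 0.29 ± 0.27 (SE, adjusted p = 0.931) with TMM scaling and 0.90 ± 0.57 with library totals, so its sign did not turn with the scaling. It rests on 74 to 159 ChIP reads in a library. Its 7 regions had 1 call in FAD 1, 5 in FAD 2, 1 in WT 1 and 0 in WT 2. A higher sum in FAD is thus favoured by the choice of regions at this gene. Cntnap5a had 2331 and 2404 in WT and 2103 and 2090 in FAD, with no overlap and a log2 fold of -0.18 ± 0.22 (SE).

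Cntnap5b had 1837 and 1944 CPM in WT and 1664 and 1193 in FAD. Cntnap5c had 1544 and 2038 in WT and 1420 and 1284 in FAD. In both genes the FAD mice were below the WT mice, and both had a log2 fold of -0.41, with an SE of 0.25 and 0.24 (adjusted p = 0.931 for each). How reads that align equally well to relatives such as the Cntnap5 genes were assigned was not given in the sources used here.

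In all, 5 members (Cntn5, Cntn6, Cntnap5a, Cntnap5b and Cntnap5c) were lower in both FAD mice on this scale, where 16.3% of all genes were, and 1 was higher in both, where 18.9% were. Of the member regions, 21.85% had been called in WT 1 alone (15.23% of all regions) and 49.16% in FAD 2 alone (60.26%). The calls and the sums come from the same reads, so these counts are no test. The groups of 2 are too small for an exact permutation test of a gene to reach 0.05, since the smallest two-sided p for 2 against 2 is 0.333.

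**Figure D4:**
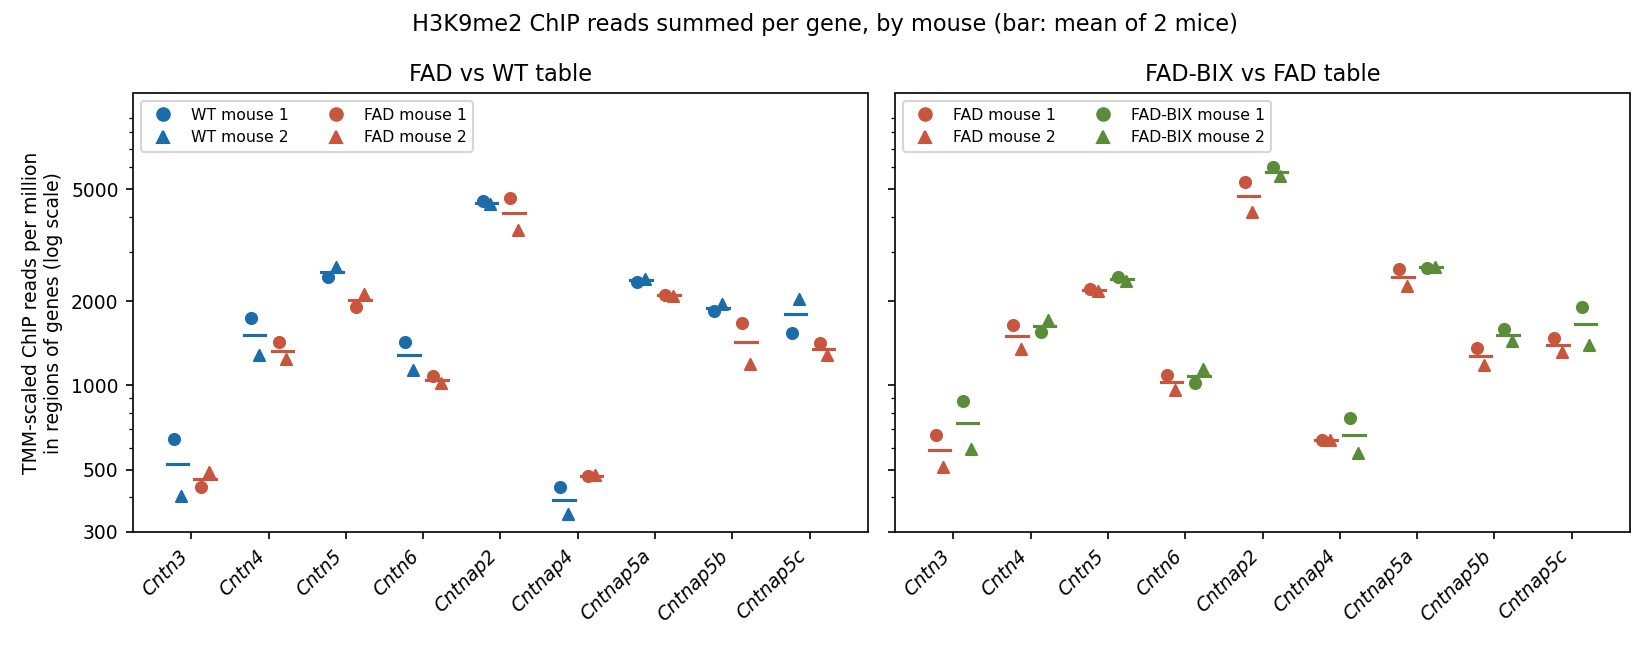
ChIP reads summed over each gene's regions, in TMM-scaled CPM on a log scale, by mouse, with a bar for the mean of 2 mice. Values are to be compared between mice at 1 gene. The regions were chosen by calls in these same ChIP libraries. In the first table both FAD mice (red) lie below both WT mice (blue) at Cntn5, Cntn6, Cntnap5a, Cntnap5b and Cntnap5c and above them at Cntnap4.

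Leaving out single libraries changed these results. With library totals and without FAD 1, whose Thy1 reads were at the WT level, all 9 log2 folds were above 0. The fold ran from 0.33 at Cntnap5b to 1.299 at Cntnap4 and was 0.82 at Cntnap5a, where the median of all genes was 1.03. Of the regions summed, 5 of 7 at Cntnap4 and 20 of 36 at Cntnap5a had been called in FAD 2 alone. Higher values in FAD 2, the FAD mouse that was left, are thus favoured by the choice of regions and are no test. The lone FAD library is also assumed to vary like the WT libraries. With TMM scaling and without FAD 1, no member passed.

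At single regions, 193 of 238 member regions had enough reads to test, and 0 were called at an adjusted p under 0.05 (0% of 27778 regions tested). At an unadjusted p under 0.05, 1 was higher in FAD (0.918% of all tested) and 16 were lower (4.97%), which is 8.29% of the members tested. The folds differed by the group that called the region. Of 53 member regions called in WT alone, all had a fold below 0, with a median of -1.27, and all 16 lower regions were among them. Of 128 called in FAD alone, 78 had a fold above 0 (median 0.15). The other 50 had a fold below 0, as did 10 of the 12 member regions called in both groups. Over all regions the medians were -0.98 for those called in WT alone and 0.21 for those called in FAD alone. The calls and the folds come from the same reads, so these directions give no test.

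The region with the smallest p of each member is a description of the table's extremes. At Cntn3, Cntn5, Cntn6, Cntnap2 and the 3 Cntnap5 genes it was an intron called in a single WT library, and at Cntn4 and Cntnap4 one called in a FAD library with an unadjusted p above 0.05. The Cntn3 region had an unadjusted p above 0.05 as well. The smallest p of all members belonged to intron 3 of Cntnap5a (chr1:115950227-115950857), where FAD 1 and FAD 2 had 9 and 11 ChIP reads and WT 1 and WT 2 had 22 and 42, a log2 fold of -2.05 ± 0.51 (SE, adjusted p = 0.832). Both WT mice were above both FAD mice, but the input of WT 1 held 17 reads there, close to its 22 in ChIP. In intron 8 of Cntnap5b (chr1:100144103-100144420) FAD 1 and FAD 2 had 4 and 3 ChIP reads and WT 1 and WT 2 had 23 and 15, a log2 fold of -2.80 ± 0.75 (SE, adjusted p = 0.832). In intron 11 of Cntnap5c (chr17:58160042-58160427) the reads were 3 and 0 against 12 and 30, and in intron 8 of Cntn5 (chr9:10033104-10033363) 4 and 1 against 21 and 11. Both WT mice were above both FAD mice in the regions of Cntnap5b, Cntnap5c and Cntn5, with 0 to 6 reads in the inputs.

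In intron 2 of Cntnap2 (chr6:45710698-45711101) FAD had 4 and 4 reads and WT 24 and 11, and in intron 4 of Cntn6 (chr6:104700365-104700705) FAD had 7 and 0 and WT 11 and 25. Without FAD 1 and with TMM scaling, 3 member regions were called lower, the Cntnap5c and Cntn6 regions above (adjusted p = 0.00772 and 0.0365) and intron 15 of Cntnap2 (chr6:46911414-46911979, adjusted p = 0.00869). In that fit 118 of 32835 regions were lower and 1 higher. At these 3 regions FAD 2 had 0 or 1 reads, so the size of the fold is not given. The Cntnap2 region was named because it passed there, after its values were seen.

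The member region shared most widely in this table lay in intron 20 of Cntnap2 (chr6:47120695-47121547) and was called in FAD 1, FAD 2 and WT 2. It held 34 and 42 ChIP reads in FAD and 23 and 48 in WT, against 3 to 5 in the inputs. The groups overlapped, and the log2 fold was -0.27 ± 0.46 (SE), which became 0.29 with library totals. The authors' deposited table gave 5 member regions a p under 0.05, 2 higher and 3 lower in FAD (2.101% of member regions, 2.67% of all regions).

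The second comparison asks how the mark differed in FAD mice under BIX01294. With TMM scaling all 9 members had a log2 fold above 0, from 0.06 to 0.32, but 0 of 9 passed the threshold, as did 0 of 4096 genes (0%), and DESeq2 called 0 members. At an unadjusted p under 0.05, 0 members were higher in FAD-BIX, where 2.95% of all genes were, and 0 were lower, where 2% were. The median over the members was 0.13 and over all genes -0.0005. With library totals 7 of the 9 folds were below 0, the median was -0.14 and that of all genes -0.30. The members thus lay above all genes by 0.13 and 0.16, and only this difference, not the sign, was common to both scalings. It depended on the regions counted. With only regions called in at least 2 ChIP libraries, and TMM scaling, the median was -0.14 for the 8 members tested and 0.0046 for all genes. The FAD libraries are the same as in the first comparison, so the 2 sets of folds are not independent.

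Of the contactins, Cntn3 had 662.7 and 513.1 CPM in FAD 1 and FAD 2 and 876.1 and 592.4 in FAD-BIX, with overlap and a log2 fold of 0.32 ± 0.25 (SE). Cntn4 had 1647 and 1347 in FAD and 1554 and 1716 in FAD-BIX, also with overlap, and 0.13 ± 0.20. Cntn5 had 2209 and 2169 in FAD and 2438 and 2353 in FAD-BIX, higher in both FAD-BIX mice, with a log2 fold of 0.13 ± 0.19 (SE). Cntn6 had 1088 and 966.5 in FAD and 1023 and 1140 in FAD-BIX, with overlap and 0.07 ± 0.21.

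Cntnap2 had 5338 and 4148 CPM in FAD and 5994 and 5583 in FAD-BIX, and its log2 fold of 0.29 ± 0.20 (SE, adjusted p = 0.864) had the smallest adjusted p of the 9. Cntnap5a had 2591 and 2267 in FAD and 2633 and 2645 in FAD-BIX, a log2 fold of 0.12 ± 0.19. Cntnap5b had 1362 and 1181 in FAD and 1588 and 1444 in FAD-BIX, a log2 fold of 0.26 ± 0.20. These 3 genes and Cntn5 were higher in both FAD-BIX mice, 4 of 9 members where 17.2% of all genes were, and 0 members were lower in both, where 18.2% of all genes were. Of the member regions, 25.93% had been called in FAD-BIX 1 alone (19.31% of all regions) and 34.57% in FAD 2 alone (44.89%). As the calls and the sums share their reads, these counts are no test. Cntnap4 overlapped between the groups, with 638.6 and 640.7 against 763.9 and 571.9, and so did Cntnap5c, with 1470 and 1319 against 1908 and 1395 (log2 folds 0.06 ± 0.23 and 0.24 ± 0.21, SE).

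In the fits without single libraries and with TMM scaling, no member passed. The direction turned at 3 members without FAD-BIX 1, at 1 without FAD-BIX 2 and at 2 without FAD 2. Without FAD 1 all 9 folds stayed above 0, from 0.06 to 0.52. With library totals and without FAD 1 all 9 were below 0, and without FAD 2 all 9 were above 0.

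**Figure D5:**
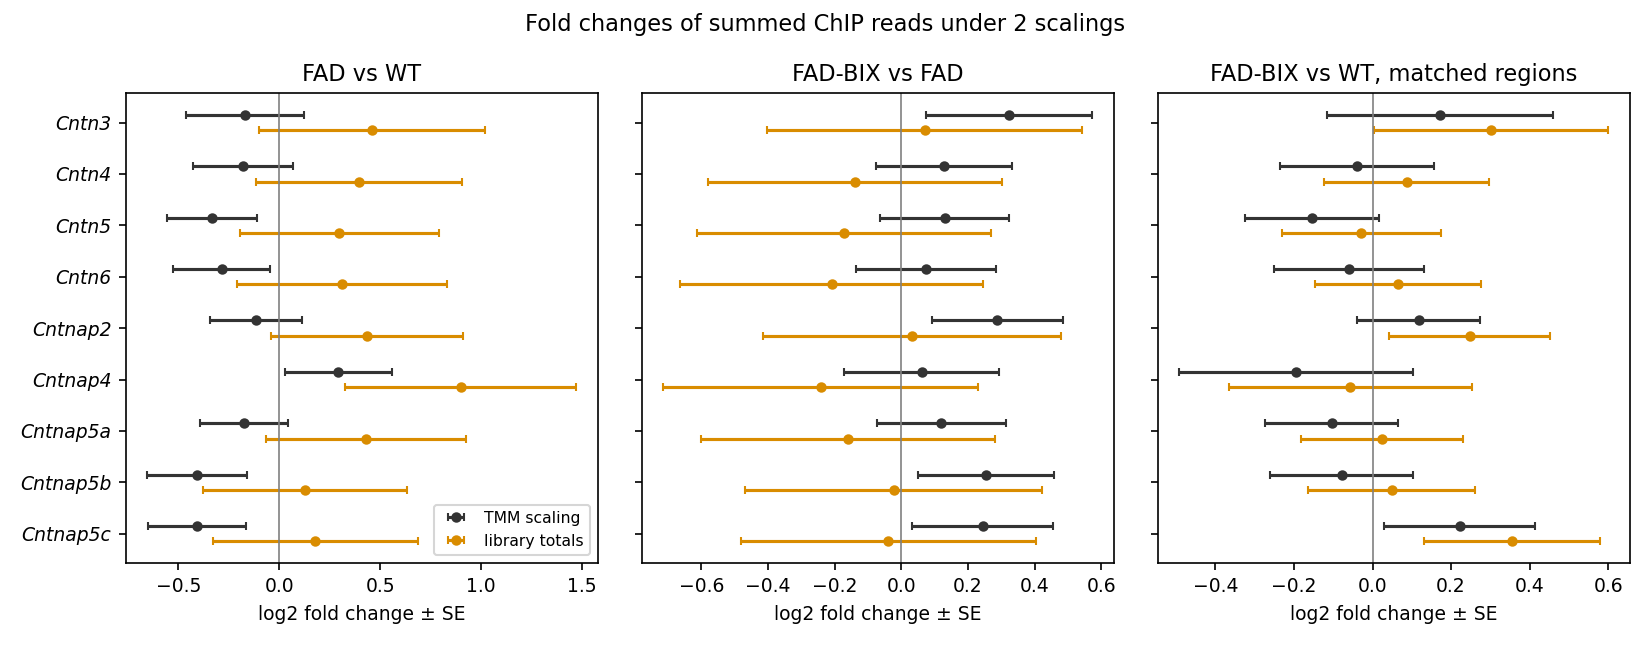
Log2 fold changes with their SE for ChIP reads summed per gene in the 3 comparisons, with TMM scaling (black) and library totals (orange). In the first panel 8 of 9 members change side between the scalings and in the second 7 of 9, and no member passed the threshold under either.

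At single regions 235 of 324 were tested and 0 were called (0% of 31055). At an unadjusted p under 0.05, 11 were higher in FAD-BIX (3.93% of all tested) and 1 was lower (1.18%), or 4.68% and 0.426% of the members tested. All 11 higher regions had been called in FAD-BIX alone, and the lower one in FAD alone. Medians were 0.69 for the 108 member regions called in FAD-BIX alone and -0.28 for the 110 called in FAD alone, beside 0.73 and -0.33 over all regions. Of these member regions 6 called in FAD-BIX alone had a fold below 0 and 19 called in FAD alone had one above 0. Here too the calls and the folds share their reads.

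The smallest p values belonged to introns of the contactin-associated protein genes. In intron 12 of Cntnap5a (chr1:116263710-116264391) FAD-BIX 1 and FAD-BIX 2 had 11 and 28 ChIP reads and FAD 8 and 0, a log2 fold of 2.54 ± 0.94 (SE, adjusted p = 0.897). In intron 15 of Cntnap4 (chr8:112835222-112835632) the reads were 21 and 12 against 5 and 4, a log2 fold of 2.24 ± 0.84 (SE, adjusted p = 0.897). In intron 11 of Cntnap5b (chr1:100252139-100253031), the region with the highest mean ChIP RPM of that gene, they were 33 and 45 against 18 and 28, a log2 fold of 1.19 ± 0.45 (SE, adjusted p = 0.897). Both FAD-BIX mice were above both FAD mice in all 3.

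In intron 13 of Cntnap2 (chr6:46499659-46500024) FAD-BIX had 16 and 23 reads against 6 and 11 for FAD, and in intron 22 of Cntnap5c (chr17:58404264-58404514) 16 and 10 against 3 and 2. The contactins gave no region at an unadjusted p under 0.05 in this comparison. The authors' deposited table gave 7 member regions a p under 0.05, 6 higher and 1 lower in FAD-BIX (2.16% of member regions, 2.09% of all), and 4 of the 6 were at contactins, 2 at Cntn3 and 1 each at Cntn5 and Cntn6.

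The 3 regions called in 3 of the 4 libraries had folds within their SE of 0. In intron 1 of Cntnap2 (chr6:45184309-45184950) FAD-BIX had 18 and 27 reads and FAD 39 and 36, so both FAD-BIX mice were below both FAD mice, and the log2 fold was -0.35 ± 0.47 (SE). In intron 20 of Cntnap2 (chr6:47120863-47121547), which overlaps the shared region of the first table, the values were 14 and 34 against 30 and 40, and -0.12 ± 0.49. In intron 11 of Cntnap5a (chr1:116231676-116232404) they were 26 and 27 against 21 and 34, and 0.39 ± 0.46.

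WT and FAD-BIX mice are in different tables, and were compared over the 155 member regions found in both at 50% reciprocal overlap, 135 of them with identical coordinates. Of the 155, 153 had been called in a FAD library, as had 98.9% of all 24757 matched regions, so the matching keeps mostly regions with a FAD call, at these genes and elsewhere. In total, 0 of 9 members passed the threshold, where 2 of 2583 genes did (0.0774%), and 0 members were called by DESeq2. At an unadjusted p under 0.05, 0 members were higher in FAD-BIX, where 3.1% of all genes were, and 0 were lower, where 2.28% were. Log2 folds of FAD-BIX against WT ran from -0.19 ± 0.30 (SE) at Cntnap4 to 0.22 ± 0.19 at Cntnap5c, with 3 above 0 and 6 below, and a median of -0.06 against 0.0046 over all genes. After TMM scaling, Cntn3 and Cntnap2 were higher in both FAD-BIX mice (17.4% of all genes were) and Cntn5 and Cntnap5a lower in both (16.5%).

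In RPM at these matched regions, FAD 2 was the highest of the 6 mice at each member. Nearly all of these regions had been called in a FAD library, and FAD 2 had the most calls in both tables. A first rank of FAD 2 is thus favoured by the choice of regions and is no test. Its rank over all matched regions is not given, so the rank is not shown to be particular to these genes. At Cntnap2 the values were 22.4 and 24.7 in WT, 31.3 and 49.9 in FAD and 29.5 and 26.4 in FAD-BIX. At Cntn5 they were 11.1 and 12.4 in WT, 11.5 and 26.8 in FAD and 11.3 and 11.7 in FAD-BIX, so that FAD 1, WT and FAD-BIX lay together. At Cntnap5a they were 11.8 and 13.8 in WT, 14.6 and 29.9 in FAD and 13.9 and 12.1 in FAD-BIX. At Cntnap4 they were 2.61 and 2.67 in WT, 3.73 and 7.45 in FAD and 3.42 and 1.68 in FAD-BIX.

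The rest of the pathway was described from lists of genes. Of the other contactin and contactin-associated protein genes, Cntn2 and Cntnap1 had no region in either table, while Cntn1 and Cntnap3 were tested. Their group had 5.92 regions per Mb in each table. Cntnap3 had a log2 fold of -1.70 ± 0.72 in FAD against WT (SE, adjusted p = 0.931) and 1.26 ± 0.84 in FAD-BIX against FAD (SE, adjusted p = 0.860). Of 22 membrane partners, among them the phosphatases Ptprg and Ptprz1, the Shaker-type potassium channels and the amyloid precursor protein, 5 and 7 had an overlapping region, with 3.80 and 7.37 regions per Mb over the list. The channel genes Kcna1 and Kcna2 and the amyloid precursor protein gene App had none in either table. App and Kcna2 were still tested, on regions given to them whose centres lay outside the gene. Of 24 other immunoglobulin-superfamily adhesion genes 10 and 15 had one (6.52 and 10.1 per Mb), and of 5 IgLON genes, small lipid-anchored adhesion proteins, 4 and 4 (15.6 and 20.9 per Mb). All of these lists were below the 29.0 and 39.55 regions per Mb of the 9 members, but they were not matched to the members for gene length. The members leave out Cntn1, Cntn2, Cntnap1 and Cntnap3 and were chosen with earlier results known, so the difference is no test. Density was higher in long genes. All protein-coding genes together had 8.26 and 10.9 regions per Mb, and those of at least 500 kb had 18.0 and 24.6.

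No gene of these lists passed the threshold in any of the 3 comparisons. In FAD against WT the medians were -0.04 for the 9 membrane partners tested (3 above 0 and 6 below), 0.37 for the 11 other adhesion genes (8 and 3) and -0.21 for the 4 IgLON genes (0 and 4). In FAD-BIX against FAD they were 0.18 for 10 partners (6 and 4), 0.13 for 11 adhesion genes (7 and 4) and 0.23 for 4 IgLON genes (4 and 0). The smallest unadjusted p in each direction over these lists in the first comparison belonged to Mpdz, a scaffold protein (log2 fold 0.98 ± 0.52, SE), and Mdga2, a regulator of synapse formation (-0.98 ± 0.31, SE), both with an adjusted p of 0.931.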

How the data were processed

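H3K9me2 ChIP and input libraries came from the prefrontal cortex of 6 mice. Tools named in the notes were BWA 0.7.12, Trimmomatic, MACS2 2.1.0 and FastQC, per the submitters' processing notes. These name the build mm9, but all 9 members lay at their RefSeq positions of GRCm38.p6, so coordinates are given as GRCm38, as the files write them. Per the file headers, the deposited tables hold read counts per region and library, RPM, the libraries a region was called in, and the authors' log2 fold change and p-value. Each deposited RPM was (count + 1) multiplied by 1 factor per library. Library totals were taken from the inverse of that factor and were 20.45 to 26.58 M reads for ChIP and 13.92 to 23.76 M reads for input. Counts were kept at 1 row per region and summed per gene and library. RPM in the text were computed from these counts without the added read.

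ChIP counts were tested in edgeR 4.0.16 (quasi-likelihood, TMM, default filter, no replicate block) over all regions or all genes of a table, adjusted by Benjamini-Hochberg, and called at an adjusted p under 0.05. P-values measure the spread between the mice of these groups. Alternatives were DESeq2 1.42.0, its size factors, library totals, no filter, a replicate block, limma 3.58.1 on log2 ChIP over input with 1 read added, each library left out, and other sets of regions. Leaving out a mouse in the ChIP to input ratio, and a set of genes of at least 300 kb, were chosen after seeing the data. The fits of the first and second comparison were tested on simulated counts with known changes. At single regions they recovered 0% and 0% of 2-fold changes, and 1.52% and 1.72% of 4-fold changes. At summed genes they recovered 18.5% and 1.89% of 2-fold changes, and 72.9% and 46.8% of 4-fold changes. Of the unchanged genes, 7 and 4 were called. Changes of 2-fold would thus mostly be missed. Regions named are, for each member and comparison, that with the smallest p, for each member and table that with the highest mean ChIP RPM, and those called in at least 3 libraries, of which a selection is given. Members, lists and tests were chosen with earlier results of these data known.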

Additional observations from a re-analysis of the deposited data

How the results depend on the processing

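No member region or summed gene was called under any alternative run, in any of the 3 comparisons, except without the library labelled FAD 1. Over the fits without single libraries the count ranged from 0 to 3 regions and from 0 to 2 genes in FAD against WT. The signs of single members changed more often. With library totals the log2 fold of the summed reads became Cntn3 0.46, Cntn4 0.39, Cntn5 0.30, Cntn6 0.31, Cntnap2 0.43, Cntnap5a 0.43, Cntnap5b 0.13 and Cntnap5c 0.18 in FAD against WT, Cntn4 -0.14, Cntn5 -0.17, Cntn6 -0.21, Cntnap4 -0.24, Cntnap5a -0.16, Cntnap5b -0.023 and Cntnap5c -0.038 in FAD-BIX against FAD, Cntn4 0.087, Cntn6 0.065, Cntnap5a 0.024 and Cntnap5b 0.049 in FAD-BIX against WT. With ChIP over input in limma it became Cntn3 0.24, Cntn4 0.32, Cntn5 0.37, Cntn6 0.91, Cntnap2 0.78, Cntnap5a 0.54, Cntnap5b 0.33 and Cntnap5c 0.74 in FAD against WT, Cntn3 -0.30, Cntn4 -0.039, Cntn5 -0.23, Cntn6 -0.21, Cntnap4 -0.16, Cntnap5a -0.063, Cntnap5b -0.24 and Cntnap5c -0.49 in FAD-BIX against FAD, Cntn4 0.26, Cntn6 0.61 and Cntnap5a 0.074 in FAD-BIX against WT. With overlapping regions only it became Cntn6 -0.0091 in FAD-BIX against FAD. With only regions called in a WT library (first comparison) or a FAD-BIX library (second) it became Cntn3 0.43 and Cntn6 0.088 in FAD against WT, Cntn3 -0.026, Cntn6 -0.19, Cntnap4 -0.04 and Cntnap5c -0.20 in FAD-BIX against FAD. With regions called in at least 2 ChIP libraries it became Cntn4 0.34 and Cntnap2 0.17 in FAD against WT, Cntn4 -0.046, Cntn6 -0.13, Cntnap2 -0.15, Cntnap4 -0.39, Cntnap5a -0.22 and Cntnap5b -0.37 in FAD-BIX against FAD. Without regions called in FAD 2 alone it became Cntn3 0.26 and Cntnap2 0.053 in FAD against WT, Cntn3 -0.0061, Cntn6 -0.085, Cntnap4 -0.059 and Cntnap5c -0.14 in FAD-BIX against FAD. With identical coordinates it became Cntnap5a 0.032 in FAD-BIX against WT. At 90% reciprocal overlap it became Cntnap5a 0.040 and Cntnap5b 0.0024 in FAD-BIX against WT. With library totals the median of all genes was 0.61, -0.30 and 0.13 in the 3 comparisons. In the fits on fewer regions TMM scaling was computed over those regions alone, and with regions called in at least 2 libraries 7 and 8 members could be tested. The cause of these reversals was not tested. No sign of a summed fold turned with DESeq2, with its size factors or with no filter on low counts.

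Each ChIP library was left out in turn, with TMM scaling and with library totals, which turned the sign of most members at least once. The exceptions were Cntnap4 in FAD against WT and Cntn3 and Cntnap2 in FAD-BIX against WT. In FAD against WT the ranges were Cntn3 -0.50 to 0.91, Cntn4 -0.41 to 0.71, Cntn5 -0.42 to 0.74, Cntn6 -0.47 to 0.67, Cntnap2 -0.36 to 0.68, Cntnap5a -0.22 to 0.82, Cntnap5b -0.71 to 0.33 and Cntnap5c -0.62 to 0.52. In FAD-BIX against FAD the ranges were Cntn3 -0.26 to 0.58, Cntn4 -0.38 to 0.28, Cntn5 -0.52 to 0.28, Cntn6 -0.50 to 0.17, Cntnap2 -0.18 to 0.49, Cntnap4 -0.60 to 0.26, Cntnap5a -0.44 to 0.22, Cntnap5b -0.30 to 0.36 and Cntnap5c -0.34 to 0.46. In FAD-BIX against WT the ranges were Cntn4 -0.23 to 0.22, Cntn5 -0.23 to 0.057, Cntn6 -0.13 to 0.15, Cntnap4 -0.74 to 0.37, Cntnap5a -0.17 to 0.14, Cntnap5b -0.17 to 0.18 and Cntnap5c -0.0024 to 0.58. The region of Cntnap2 intron 20 in the first table had a log2 fold of 0.29 with library totals, 0.0099 with ChIP over input in limma and -0.63 to 0.84 without single libraries. The intron 20 region of the second table ranged from -1.18 to 0.32 and the Cntnap5a intron 11 region from -0.39 to 0.57. Regions called in at least 2 libraries gave 2.28 and 2.79 regions per Mb, and those left without regions called in FAD 2 alone 14.96 and 25.9. The log2 ChIP over input of WT was 1.65 over regions called in at least 2 libraries, against 1.44 over all member regions. With 0.5 or 5 reads added the ratio moved by less than the SD of its group.

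With the replicate number as a block (replicate block), 0 members were called in each comparison, and the summed folds ran from -0.42 to 0.30, from 0.05 to 0.31 and from -0.24 to 0.21. Over all genes the block gave 2 calls in FAD against WT and 2 in FAD-BIX against FAD, where the fit without it gave 0. Over regions the differences between same-numbered mice correlated at 0.057 and -0.040, so the numbers were not taken to pair the mice. Precision is limited by 2 mice a group, by a median of 11 to 20 ChIP reads per region, and by regions selected through calls in the libraries that are compared.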
